A study of Mus musculus with 12 samples.

Results

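The genes named Zfp700 to Zfp999 were followed in mouse 8-cell embryos in which the transcription factors NR5A2 and KLF5 had been knocked down. A gene was a member if its identifier mapped to a protein-coding symbol in this range, with or without a letter behind the number, and 137 of the 55401 counted genes were members. A further 254 protein-coding genes carry the names Zfp1 to Zfp699. RNA-seq was made from 12 libraries, each of 10 pooled 8-cell embryos. All embryos came from B6129F1 females mated with B6CBAF1 males, and all were injected as zygotes with siRNA and H2B-EGFP mRNA, a marker of injection. The groups were control (n = 2), injected with 15 µM control siRNA, Nr5a2 KD (n = 3), injected with 5 µM siRNA against Nr5a2, Klf5 KD (n = 3), injected with 10 µM siRNA against Klf5, and dKD (n = 4), injected with both knockdown siRNAs at concentrations that the methods do not name. A knockdown lowers a transcript without removing the gene, and in pooled embryos fewer cells with a transcript and less of it per cell cannot be told apart. The labels do not say which libraries came from separate collections of embryos, so the p-values measure the spread between these libraries.

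Most of these genes encode KRAB zinc finger proteins. Such a protein binds DNA through an array of zinc fingers, and its KRAB domain recruits the corepressor TRIM28 and the methyltransferase SETDB1, which place H3K9me3 on the bound chromatin. Many of the known targets are endogenous retroviruses and other transposable elements. The genes arose by repeated local duplication, so they lie in clusters, and neighbours are often alike in sequence. NR5A2 is an orphan nuclear receptor and KLF5 a Krüppel-like factor, and both activate genes of the early embryo.

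The targeted genes were measured first. Nr5a2 averaged 217 CPM in control (counts scaled to a common library size), 31.9 in Nr5a2 KD, 192 in Klf5 KD and 29.7 in dKD. Klf5 averaged 455 CPM in control, 139 in Nr5a2 KD, 111 in Klf5 KD and 56.0 in dKD. The log2 fold change of Klf5 was -2.03 ± 0.29 (SE) in Klf5 KD against control, with an adjusted p of 0.0996 in edgeR's quasi-likelihood test, so the target of that siRNA missed the threshold there. The libraries held 6676683 to 12560926 counts on genes. In 4 libraries, which were Nr5a2 KD replicate 3, Klf5 KD replicate 1 and dKD replicates 3 and 4, mitochondrial genes took 4.41 to 6.75% of the counts, against 8.28 to 13.2% in the other 8. Calls and medians were recomputed without these 4 libraries and, apart from that, with a covariate for the mitochondrial share, and the calls lost without them are given beside the results. The part of this difference in any result was not tested. Of 7 cumulus and granulosa cell markers, at most 1 was abundant enough to be tested in any comparison, and their summed level stayed between 0.707 and 3.28 CPM.

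The members took 0.517 to 0.818% of the counts on genes. Their 137 genes lie on 17 chromosomes, with 25 on chromosome 7, 23 on chromosome 17 and 16 on chromosome 4. With starts at most 1 Mb apart, 100 of them fall into 15 clusters of 3 or more. Expression was very uneven. The median member reached 7.68 CPM in control, 3 members had no count in any library, 34 had a mean count under 10, and the 10 highest members held 74.3% of the members' CPM in control. Of the 137, 110 passed the filter on low counts in at least 1 comparison or in the test of the interaction, and 98 passed in all 6 pairwise comparisons.

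Sequence likeness limits what the counts of some members mean. The median member shared 6.58% of its 50-base stretches with another gene, 22 members shared more than 50%, and exons of 36 members overlapped another gene. Read pairs that map to several places had been discarded, and pairs over overlapping genes had been split, so levels of these members are less certain.

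The member that fell most upon Nr5a2 knockdown, Zfp758, lies head to head with another lower member, Zfp944, in a chromosome 17 cluster that runs from Zfp948 to Zfp945 (chr17:21567008-22867134, GRCm38). Zfp758 starts 53 bases from Zfp944 and is transcribed away from it. A second head-to-head pair, Zfp943 and Zfp942, lies in the same cluster with 88 bases between the starts. The promoter windows of these 4 genes (RefSeq, GRCm38.p6, from 250 bases before to 50 after the annotated start, read along each gene's own strand) are shown because the pairs are near copies of each other and their transcripts did not move alike. Zfp758 and Zfp943 are compared first. Over the 293 aligned columns there was no substitution and 1 unpaired base, which is the capital in Zfp943.
Zfp758, chr17:22361213-22361512, plus strand: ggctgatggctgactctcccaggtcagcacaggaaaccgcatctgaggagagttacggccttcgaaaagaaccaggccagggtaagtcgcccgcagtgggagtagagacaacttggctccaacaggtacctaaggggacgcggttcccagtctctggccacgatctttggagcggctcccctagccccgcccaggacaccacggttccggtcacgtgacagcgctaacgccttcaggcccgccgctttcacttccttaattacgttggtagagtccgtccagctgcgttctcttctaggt
Zfp943, chr17:21962309-21962608, plus strand: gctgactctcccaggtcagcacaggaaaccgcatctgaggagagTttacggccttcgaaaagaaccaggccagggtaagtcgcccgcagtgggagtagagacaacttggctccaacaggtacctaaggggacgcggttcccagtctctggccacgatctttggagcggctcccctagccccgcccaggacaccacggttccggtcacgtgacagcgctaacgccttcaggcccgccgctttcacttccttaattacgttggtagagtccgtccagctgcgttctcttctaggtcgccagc

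On the other side of the pairs, Zfp944 and Zfp942 were aligned over 275 columns, with 1 substitution and no unpaired base. The substitution is G93A, counted from the first base of the Zfp944 window (G in Zfp944, A in Zfp942), and is printed as a capital in both.
Zfp944, chr17:22361351-22361650, minus strand: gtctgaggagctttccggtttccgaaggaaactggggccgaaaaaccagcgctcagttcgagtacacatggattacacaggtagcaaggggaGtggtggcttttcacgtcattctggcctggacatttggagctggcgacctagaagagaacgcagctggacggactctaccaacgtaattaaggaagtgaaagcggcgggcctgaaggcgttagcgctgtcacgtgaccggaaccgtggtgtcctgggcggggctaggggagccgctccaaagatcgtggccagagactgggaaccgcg
Zfp942, chr17:21962415-21962714, minus strand: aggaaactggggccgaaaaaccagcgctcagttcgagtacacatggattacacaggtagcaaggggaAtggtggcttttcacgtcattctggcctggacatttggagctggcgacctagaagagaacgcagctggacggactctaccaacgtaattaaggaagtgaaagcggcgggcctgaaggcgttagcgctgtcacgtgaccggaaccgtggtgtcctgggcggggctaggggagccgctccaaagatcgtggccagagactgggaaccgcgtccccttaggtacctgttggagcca

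The changed base lies in the 1 match of the Zfp944 window to CCACNCCC, a short form of the KLF recognition motif that was searched on both strands. The Zfp942 window holds no match. None of the 4 windows matched CAAGGNCA, the short form of the NR5A2 motif. A match of letters is a description of the sequence and does not show binding.

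Zfp758 had 36.9 and 58.4 CPM in control, 3.76, 5.08 and 4.51 in Nr5a2 KD, 14.3, 25.5 and 54.1 in Klf5 KD, and 17.2, 13.4, 4.95 and 11.4 in dKD. All Nr5a2 KD and dKD libraries lay below both controls, and only Klf5 KD overlapped control. The fall in Nr5a2 KD against control was -3.39 ± 0.31 on the log2 scale (SE), or 10.5-fold, with an adjusted p of 0.000321 from edgeR. In dKD against control it was -1.99 ± 0.38 (adjusted p = 0.00968, edgeR).

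Zfp944 had 18.0 and 36.8 CPM in control, 10.7, 14.7 and 8.14 in Nr5a2 KD, 20.01, 25.1 and 30.3 in Klf5 KD, and 23.5, 24.3, 18.3 and 7.95 in dKD. The Nr5a2 KD libraries lay below both controls, and those of the other groups overlapped them. It fell by 1.27 on the log2 scale in Nr5a2 KD (SE 0.36, edgeR adjusted p = 0.0478). This call was lost in 9 of 16 alternative analyses, among them the one without the libraries of low mitochondrial share (-1.09, adjusted p = 0.0768), whereas the call of Zfp758 held in all 16. In dKD against control Zfp944 was at -0.54 ± 0.41, which did not pass (edgeR adjusted p = 0.468).

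The near copies gave other values. Zfp943 had 15.3 and 11.0 CPM in control and 9.76, 8.86 and 9.02 in Nr5a2 KD, a log2 fold change of -0.48 ± 0.33 (edgeR adjusted p = 0.407). Zfp942 had 20.3 and 29.9 CPM in control and 30.3, 25.3 and 31.2 in Nr5a2 KD, a log2 fold change of 0.23 ± 0.27 (edgeR adjusted p = 0.670). Neither passed in any of the 6 comparisons. Between 2.87 and 10.4% of the 50-base stretches of these 4 transcripts occur in another gene, so most of their reads could be placed. The difference between the gene pairs was not itself tested.

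**Figure D1:**
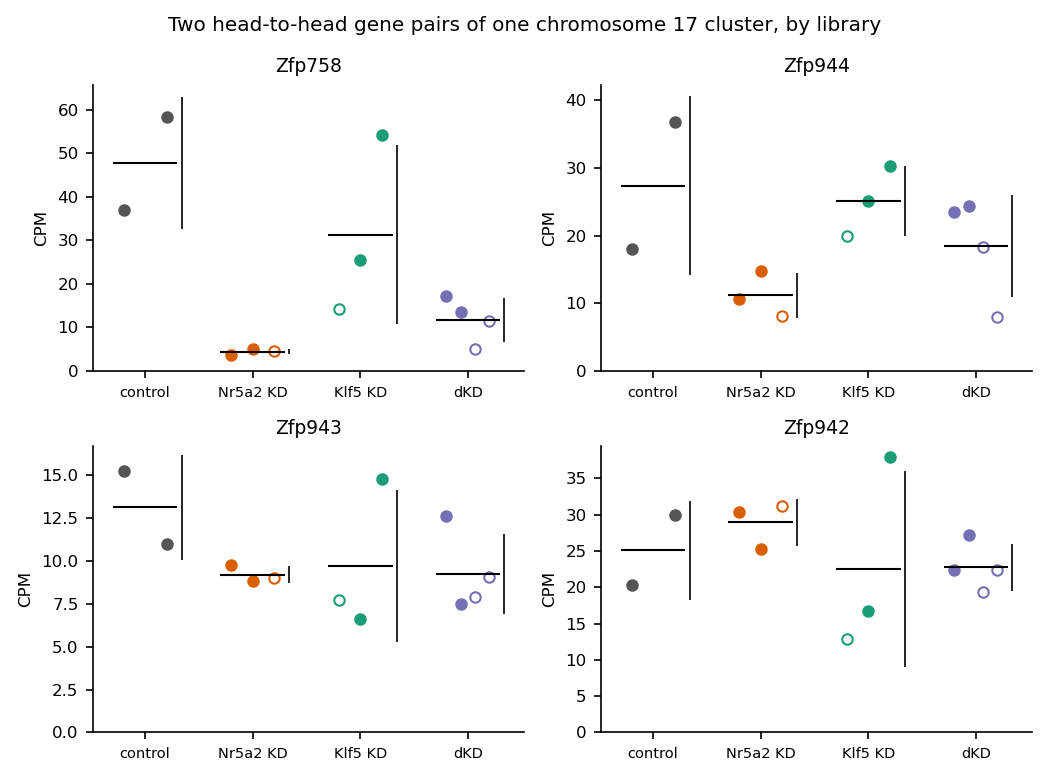
CPM of Zfp758, Zfp944, Zfp943 and Zfp942 (y axes) in each library, by group (x axis). Points are libraries, horizontal bars group means, vertical bars ± 1 SD, and open points the 4 libraries of low mitochondrial share. The 3 Nr5a2 KD libraries lie between 3.76 and 5.08 CPM for Zfp758, below both controls, and overlap control for Zfp942.

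To ask how the whole group responded to the loss of NR5A2, Nr5a2 KD was compared with control. A call here means an adjusted p under 0.05 over all tested genes and a change of at least 2-fold. Of 105 tested members 6 were lower and 1 was higher, where 4.42% of all 13262 tested genes were lower and 3.45% higher. In either direction 6.67% of the members and 7.86% of all genes were called, and at an unadjusted p under 0.05 they were 23.8% and 24.1%, so the members' shares were near the background. Their median log2 fold change was -0.09, against 0.04 over all genes, and 47 of the 105 lay above 0, or 44.8%, against 52.6% of all genes. Scaling to the ERCC spike-in RNA in place of TMM moved the median of all genes to 0.82 and the calls among members to 1 lower and 6 higher, where 0.679% of all genes were lower and 5.74% higher. Total counts gave 4 members lower and 2 higher, where 3.42% of all genes were lower and 3.80% higher.

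Besides Zfp758 and Zfp944, the lower members were Zfp932, Zfp950, Zfp974 and Zfp748. With the mitochondrial covariate Zfp758 kept its call, and Zfp944 (-0.92), Zfp932 (-0.96), Zfp950 (-0.98), Zfp974 (-1.36) and Zfp748 (-1.21) lost theirs, Zfp932 by falling under 2-fold at an adjusted p of 0.0357 from edgeR. The 2 other members called lower there, Zfp820 (-1.37) and Zfp937 (-4.13), are named after their values were seen. Zfp932, known as a repressor of endogenous retroviruses in embryonic stem cells, is the third highest member per length in control. It had 484 and 393 CPM in control, 173, 236 and 170 in Nr5a2 KD, 299, 394 and 419 in Klf5 KD, and 169, 165, 192 and 153 in dKD. The 7 libraries that received Nr5a2 siRNA lay at or below 236 CPM and the 5 others at or above 299. Against control it fell by 1.16 ± 0.23 on the log2 scale in Nr5a2 KD (edgeR adjusted p = 0.0100) and by 1.33 ± 0.19 in dKD (edgeR adjusted p = 0.00326). Of its 50-base stretches, 37.0% occur in another gene.

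Zfp950 on chromosome 19 had 121 and 99.9 CPM in control, 43.1, 62.5 and 55.1 in Nr5a2 KD, 99.9, 158 and 215 in Klf5 KD, and 68.7, 63.4, 56.9 and 53.2 in dKD. The libraries with Nr5a2 siRNA were again all below the others. The change was -1.01 ± 0.24 in Nr5a2 KD against control (edgeR adjusted p = 0.0221). Its value in dKD against control, -0.83 ± 0.20, was past the adjusted p (0.0298 from edgeR) but under 2-fold.

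Zfp707 on chromosome 15 moved the other way. It had 25.9 and 25.3 CPM in control, 49.9, 52.5 and 52.6 in Nr5a2 KD, 29.9, 31.9 and 27.0 in Klf5 KD, and 38.7, 46.7, 65.0 and 87.2 in dKD. All libraries with Nr5a2 siRNA lay above all libraries without it. The rise was 1.04 ± 0.23 in Nr5a2 KD (edgeR adjusted p = 0.0175) and 1.26 ± 0.33 in dKD (edgeR adjusted p = 0.0396), both against control. Without the libraries of low mitochondrial share the dKD value was 0.77 and no longer passed (edgeR adjusted p = 0.0801).

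Zfp974 on chromosome 7 averaged 21.9 CPM in control and 7.83 in Nr5a2 KD, a change of -1.45 ± 0.31 (edgeR adjusted p = 0.0133). Zfp748 on chromosome 13 averaged 19.2 and 7.65 CPM, a change of -1.30 ± 0.31 (edgeR adjusted p = 0.0221). In dKD against control they were at -0.68 ± 0.37 and -0.67 ± 0.29, and neither passed. Leaving out control replicate 1 or 2 brought the calls among members in Nr5a2 KD from 7 to 2 or 1, with Zfp758 called both times, and those among all genes from 7.86% to 2.17 or 2.10%.

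The promoters of Zfp932 and Zfp950, which lie on different chromosomes, are shown because both genes were lower wherever Nr5a2 was knocked down and their windows can be aligned over most of their length. Of 284 aligned columns, 73.2% were identical, and capitals mark the columns that differ. Counted over the whole 300-base window their identity was 69.3%, where the median over the 6786 pairs of member promoters was 2.33% and 71 pairs reached 70%.
Zfp932, chr5:109996260-109996559, plus strand: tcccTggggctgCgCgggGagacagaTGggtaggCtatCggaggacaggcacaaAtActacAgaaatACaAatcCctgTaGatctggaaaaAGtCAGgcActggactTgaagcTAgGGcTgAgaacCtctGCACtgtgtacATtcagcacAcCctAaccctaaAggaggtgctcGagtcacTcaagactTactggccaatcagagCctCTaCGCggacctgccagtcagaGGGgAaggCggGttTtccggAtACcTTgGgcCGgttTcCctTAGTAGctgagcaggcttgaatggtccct
Zfp950, chr19:61140791-61141090, minus strand: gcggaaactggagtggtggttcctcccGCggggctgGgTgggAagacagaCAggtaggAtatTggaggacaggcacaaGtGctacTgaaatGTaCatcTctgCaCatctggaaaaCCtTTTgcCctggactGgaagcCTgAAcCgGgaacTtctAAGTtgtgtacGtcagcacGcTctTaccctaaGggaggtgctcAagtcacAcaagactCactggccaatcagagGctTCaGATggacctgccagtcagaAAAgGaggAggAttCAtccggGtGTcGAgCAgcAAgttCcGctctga

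Neither window holds a match to the short NR5A2 or KLF motif. Of 137 members, 117 had a promoter window. The NR5A2 motif was present in 2.56% of these windows and in 6.67% of the 27025 windows of all genes, and the KLF motif in 9.40% and 17.6%. Of the 7 members called in Nr5a2 KD, 6 had a window, none held the NR5A2 motif and 1, Zfp944, held the KLF motif. Nothing follows from this about the binding of either factor, and distal elements were not searched. The Zfp950 promoter also belongs to a family of 10 alike windows whose other 9 members lie in the chromosome 2 cluster, a grouping made after the values were seen. Of this family 5 were tested in Nr5a2 KD against control. Zfp950 was the lowest, and the other 4 lay between 1.25 and 2.32 on the log2 scale with none called. Identical windows did not go with equal values in a further case. Zfp955a and Zfp955b have the same 300 bases and were at -0.63 ± 0.40 and 0.71 ± 0.31, neither past the test, and of their 50-base stretches 51.8 and 49.8% occur in another gene.

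In dKD against control, 2 of 109 tested members were lower and 3 higher, where 3.85% of all tested genes were lower, 3.38% higher and 7.24% either. At an unadjusted p under 0.05 there were 24.8% of the members and 25% of all genes. The lower members were Zfp758 and Zfp932. The higher members were Zfp707, Zfp791 and Zfp989. Zfp791 averaged 17.8 CPM in control and 37.7 in dKD (1.12 ± 0.29, edgeR adjusted p = 0.0343), and Zfp989, of the chromosome 4 cluster, averaged 10.1 and 22.0 CPM (1.17 ± 0.32, edgeR adjusted p = 0.0448). All 3 higher calls were lost with the mitochondrial covariate, without the libraries of low mitochondrial share, without dKD replicate 3, without dKD replicate 4 and without either control, although Zfp791 stayed at 1.06 and Zfp989 at 1.08 with the covariate, and at 1.08 and 1.09 without those libraries. Zfp758 lost its call in 1 of 17 alternatives, without control replicate 2, and Zfp932 in 2, with ERCC counts and without control replicate 1. Scaled to ERCC counts, 27 of the 109 members were higher and 1 lower, where 20.7% of all genes were higher and 1.30% lower and their median was 0.84. With TMM the median of the members was 0.10 and that of all genes 0.05, and 57.8% of members and 53.1% of genes lay above 0.

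To see what the loss of KLF5 alone did, Klf5 KD was compared with control. No member of 102 tested was called by edgeR, nor was any of all 12838 genes (0.0%), and DESeq2 called no member and 42 genes lower and 8 higher. At an unadjusted p under 0.05 there were 13 members, 12.7% of those tested, where 8.47% of all genes were at that level. The members leaned downwards, with 70 of 102 below 0 and a median of -0.30, against 0.00 over all genes, where 50.5% of genes lay above 0. The other Zfp genes leaned the same way, with a median of -0.17 and 39.4% above 0. Without the libraries of low mitochondrial share the median was -0.13, with the mitochondrial share as a covariate it was 0.09, and with ERCC counts it was 0.32 where that of all genes was 0.66. The smallest p-values belonged to Zfp868, Zfp947 and Zfp946. Zfp868 averaged 25.7 CPM in control and 10.0 in Klf5 KD (-1.36 ± 0.34, edgeR adjusted p = 0.320), and Zfp947 averaged 93.1 and 34.6 CPM (-1.44 ± 0.37, edgeR adjusted p = 0.321). Zfp946, at 3.28 and 0.247 CPM, rested on few counts.

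When Nr5a2 was knocked down on top of Klf5, many more members were higher than lower. In dKD against Klf5 KD, 13 of 106 tested members were higher and 2 lower, where 5.38% of all tested genes were higher, 5.41% lower and 10.8% either. The median log2 fold change was 0.46 over the members and 0.02 over all genes, and 79 of 106 members, or 74.5%, lay above 0, against 51.7% of all genes. At an unadjusted p under 0.05 there were 32.1% of the members and 26.6% of all genes. Among the other Zfp genes, 14 of 168 were higher and 6 lower, with a median of 0.28. The lean depended on how the libraries of low mitochondrial share were treated. Without them, 5 of 102 members were higher and 2 lower and the median was 0.06, and of all genes 2.69% were higher and 3.26% lower. With the mitochondrial covariate, 16 of 106 were higher and 3 lower and the median was 0.40, and of all genes 6.45% were higher and 6.45% lower. The members took 0.818 and 0.780% of the counts in dKD replicates 3 and 4, the highest shares of the 12 libraries, and 0.547% in Klf5 KD replicate 1, the second lowest. Total counts gave 18 members higher and 1 lower, where 8.25% of all genes were higher and 3.77% lower, and ERCC counts gave 11 higher and none lower, where 4.56% of all genes were higher and 2.71% lower.

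Zfp947, Zfp995, Zfp791 and Zfp980 were called higher in all 18 alternatives. Zfp947 had 65.3 and 121 CPM in control, 88.2, 99.9 and 93.0 in Nr5a2 KD, 23.6, 28.4 and 51.7 in Klf5 KD, and 105, 151, 127 and 123 in dKD. All Klf5 KD libraries lay below every other library, and control spanned both other groups in part. The log2 fold change was 1.88 ± 0.29 in dKD against Klf5 KD (edgeR adjusted p = 0.00177) and -1.46 ± 0.31 in Klf5 KD against Nr5a2 KD (edgeR adjusted p = 0.00728).

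Zfp995, of the same chromosome 17 cluster as Zfp947, had 18.5 and 7.96 CPM in control, 20.4, 27.1 and 50.8 in Nr5a2 KD, 8.43, 3.18 and 9.08 in Klf5 KD, and 29.6, 24.8, 23.3 and 38.9 in dKD. Both groups with Nr5a2 siRNA lay above Klf5 KD, and control reached from the Klf5 KD levels to just below them. The change was 2.09 ± 0.37 in dKD against Klf5 KD (edgeR adjusted p = 0.00309). Zfp791 on chromosome 8 had 9.69, 11.0 and 14.4 CPM in Klf5 KD and 26.4, 47.5, 38.3 and 38.8 in dKD, a change of 1.71 ± 0.28 (edgeR adjusted p = 0.00223). Zfp980 of the chromosome 4 cluster had 17.7, 30.3 and 30.9 CPM in Klf5 KD and 81.6, 68.2, 66.5 and 71.0 in dKD, a change of 1.46 ± 0.26 (edgeR adjusted p = 0.00309), but 71.3% of its 50-base stretches occur in another gene.

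The windows of Zfp995 and Zfp947 hold the same stretch, which ends the first and opens the second because their annotated starts differ. It is shown because both genes were lowest in Klf5 KD. Of 86 bases, 82 were identical, and capitals mark the others.
Zfp995, bases 215 to 300 of its window: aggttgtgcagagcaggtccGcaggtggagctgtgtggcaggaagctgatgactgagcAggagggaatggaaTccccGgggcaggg
Zfp947, bases 1 to 86 of its window: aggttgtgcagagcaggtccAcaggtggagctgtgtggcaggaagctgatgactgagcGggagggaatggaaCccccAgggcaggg

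Zfp820 lies in the same cluster, and its whole window was 68.3% identical to that of Zfp947. It was called in none of the 6 comparisons. Zfp948, at the edge of the same cluster, gave a weaker alignment to Zfp947, with 70.3% of 101 columns identical. It had 7.12, 6.48 and 11.6 CPM in Klf5 KD, 18.9, 28.4 and 29.3 in Nr5a2 KD and 19.4, 18.5, 16.4 and 17.5 in dKD. It was called in dKD against Klf5 KD (1.11 ± 0.30, edgeR adjusted p = 0.0261) and in Klf5 KD against Nr5a2 KD (-1.63 ± 0.34, edgeR adjusted p = 0.00659). The first was 1.09 without the libraries of low mitochondrial share and lost its call (edgeR adjusted p = 0.122). Zfp947, Zfp995 and Zfp948 lie in the same cluster as Zfp758 and Zfp944, which were higher in Klf5 KD than in Nr5a2 KD, so the cluster was divided.

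**Figure D2:**
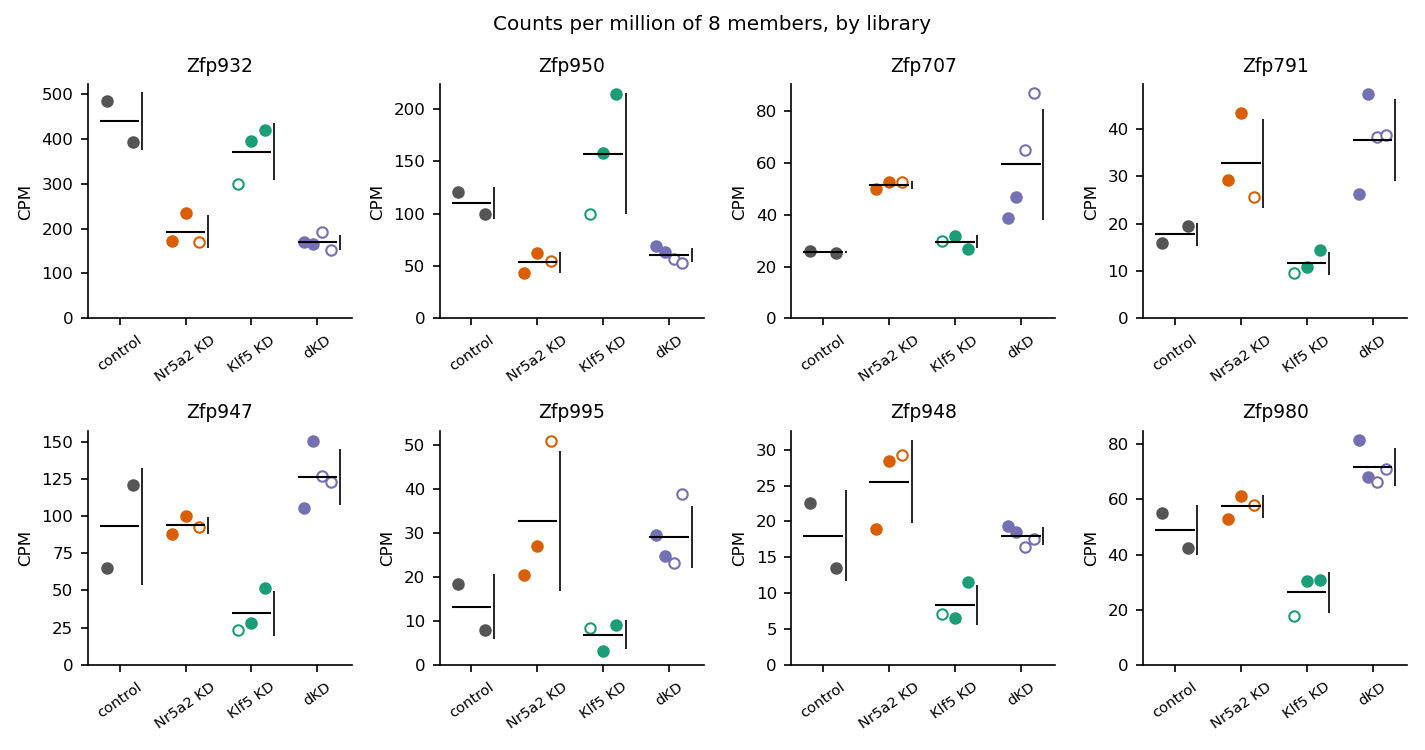
CPM of Zfp932, Zfp950, Zfp707, Zfp791, Zfp947, Zfp995, Zfp948 and Zfp980 (y axes) in each library, by group (x axis). Points are libraries, horizontal bars group means, vertical bars ± 1 SD, and open points the 4 libraries of low mitochondrial share. Zfp932 and Zfp950 are low, and Zfp707 high, in both groups with Nr5a2 siRNA, and Zfp947 and Zfp980 are low in Klf5 KD.

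The remaining members called higher in dKD against Klf5 KD had lower counts or held less well. Zfp941 averaged 0.648 CPM in Klf5 KD, where no library reached the count filter, and 3.21 in dKD (2.34 ± 0.64), so its direction was set by the filter. Zfp952 averaged 3.46 and 10.7 CPM (1.65 ± 0.37). Zfp708, which binds the RMER19B class of retroviral repeats, averaged 3.69 and 9.88 CPM (1.41 ± 0.40). Zfp975, Zfp763 and Zfp981 were at 1.54, 1.48 and 1.18, and the groups of Zfp975 and Zfp981 overlapped. Without the libraries of low mitochondrial share Zfp941, Zfp952, Zfp708, Zfp975 and Zfp763 were at 1.23, 1.22, 1.18, 1.08 and 1.14, and all 5 lost their calls (edgeR adjusted p from 0.165 for Zfp708 to 0.426 for Zfp941).

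Klf5 KD against Nr5a2 KD compares the single knockdowns. Of 101 tested members 7 were lower and 4 higher in Klf5 KD, where 5.6% of all tested genes were lower, 5.83% higher and 11.4% either. At an unadjusted p under 0.05 there were 24.8% of the members and 25.9% of all genes. Of the members 30.7% lay above 0, of the other Zfp genes 35.6% and of all genes 48.3%, with medians of -0.23, -0.25 and -0.03. The higher members were Zfp758 (2.79 ± 0.45), Zfp950 (1.54 ± 0.31), Zfp974 (1.30 ± 0.38) and Zfp944 (1.15 ± 0.32), each also lower in Nr5a2 KD against control, a comparison with which it shares the Nr5a2 KD libraries. The lower members included Zfp995 (-2.27 ± 0.43), Zfp791 (-1.51 ± 0.31) and Zfp763 (-1.63 ± 0.46). Zfp931 had the lowest value, -3.70 ± 1.01, at 0.235 CPM in Klf5 KD and 2.78 in Nr5a2 KD. It reached the count filter in no Klf5 KD library, so its direction was set by the filter, and it lost its call without Klf5 KD replicate 1 or 2, without Nr5a2 KD replicate 2 and without the libraries of low mitochondrial share. In the last of these Zfp763 (-1.26, edgeR adjusted p = 0.179), Zfp944 (1.09, 0.0526) and Zfp980 (-0.93, under 2-fold) lost their calls too.

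In dKD against Nr5a2 KD no member of 109 was called by edgeR or DESeq2, nor was any of 13017 genes by edgeR (0.0%), and DESeq2 called 4 genes. Of the members, 6 had an unadjusted p under 0.05, or 5.50%, where 3.43% of all genes did. The members leaned upwards, with 76 of 109 above 0, or 69.7% against 51.5% of all genes and 66.0% of the other Zfp genes, and a median of 0.20 (0.12 in the other Zfp genes), and without the libraries of low mitochondrial share the median was 0.09. The smallest p belonged to Zfp758, which averaged 4.45 CPM in Nr5a2 KD and 11.7 in dKD (1.39 ± 0.40, edgeR adjusted p = 0.999), and whose groups overlapped. Zfp866 and Zfp947 were at 1.00 ± 0.36 and 0.43 ± 0.19. All 3 were higher in dKD in 3 of 3 same-numbered pairs, and with the numbers as a block none passed (edgeR adjusted p = 0.550, 0.777 and 0.604). The test of the interaction, which asks whether the effect of Nr5a2 siRNA differed with and without Klf5 siRNA, called no member of 110 by edgeR or DESeq2, nor any of 14830 genes by edgeR (0.0%) and 3 by DESeq2, and 12 members (10.9%) and 4.82% of all genes had an unadjusted p under 0.05. Of the members 73.6% lay above 0 there, of the other Zfp genes 62.8% and of all genes 50%.

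Nr5a2 KD against control and dKD against Klf5 KD both measure the addition of Nr5a2 siRNA, and they share no library. Of 102 members tested in both, 70 had the same sign, or 68.6%, where 71.5% of all genes did. Across the members Pearson's r was 0.64 and Spearman's rho 0.61, and across all genes r was 0.71. Members in a cluster and genes in a library are not independent, so these values are descriptions. Zfp932 and Zfp950 were called lower and Zfp707 higher in both. In dKD against Klf5 KD, Zfp707 lost its call in 9 of 18 alternatives, among them that without the libraries of low mitochondrial share (0.55, edgeR adjusted p = 0.253). Zfp932 and Zfp950 kept theirs there (-1.27 and -1.48) and lost them when replicate numbers entered the fit as a block (-1.06 and -1.25, edgeR adjusted p = 0.0808 and 0.0815). Of those with unlike signs, 30 were below 0 in Nr5a2 KD against control and above 0 in dKD against Klf5 KD, and 2 were the reverse, where all genes split into 1704 and 1829. The median of the members in dKD against Klf5 KD, 0.46, was 0.06 without the libraries of low mitochondrial share.

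**Figure D3:**
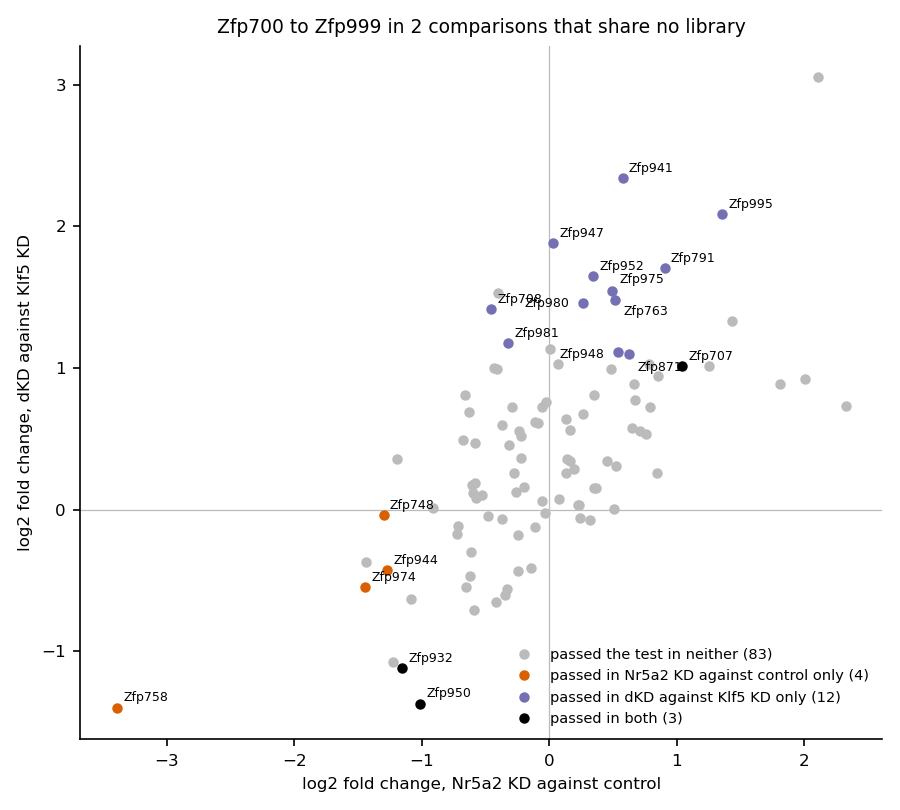
log2 fold change of the 102 members tested in both comparisons, Nr5a2 KD against control (x axis) and dKD against Klf5 KD (y axis). Each point is a gene, coloured by where it passed the test. Zfp932 and Zfp950 lie at the lower left and Zfp707 at the upper right, and 30 points lie at the upper left against 2 at the lower right.

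To ask if clusters change together, the signs within each cluster were counted wherever at least 3 members had been tested. All tested members lay on 1 side of 0 in 3 of 14 clusters in Nr5a2 KD against control, in 4 of 14 in dKD against control, in 2 of 13 in Klf5 KD against control and in 4 of 13 in dKD against Klf5 KD. Most clusters were thus mixed, and those on 1 side were small, with 3 to 6 tested members. Members of the same cluster were somewhat closer to each other than to members elsewhere. In Nr5a2 KD against control the median difference in log2 fold change was 0.57 between members of the same cluster (294 pairs) and 0.70 between members on different chromosomes (4829 pairs). The median correlation of their deviations from the group means over the 12 libraries was 0.23 in the same cluster and 0.15 on different chromosomes. Taken by cluster, this median ran from -0.57 in a chromosome 9 cluster to 0.51 in the second chromosome 17 cluster described below. Of the 312 pairs in the same cluster, 105 lay in the chromosome 4 cluster (median 0.35). These pairs share libraries, depth and in part reads of alike sequence, so no test was attached.

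The largest cluster runs from Zfp990 to Zfp933 on chromosome 4 (chr4:145510759-147848366) and has 16 members, 15 of them tested. It includes Zfp979, Zfp981 and Zfp984, which averaged 301, 159 and 115 CPM in control. The summed CPM of the cluster was 998 and 867 in control, 759, 934 and 755 in Nr5a2 KD, 446, 530 and 874 in Klf5 KD, and 1056, 939, 902 and 823 in dKD. In Klf5 KD 2 libraries lay far below control and replicate 3 lay between the controls. In Klf5 KD against control 13 of the 15 tested members were below 0, with a median of -0.55 and none called, and in dKD against Klf5 KD 13 of 15 were above 0, with a median of 0.56 and Zfp980 and Zfp981 called. In Nr5a2 KD against control the cluster was divided, with 6 of 15 above 0 and a median of -0.14. Without the libraries of low mitochondrial share 13 of 15 stayed below 0 in Klf5 KD against control (median -0.40), where the mitochondrial covariate left 8 of 15 below 0 (median -0.034) and leaving out Klf5 KD replicate 3 gave a median of -0.99. Without the same libraries 11 of 15 were above 0 in dKD against Klf5 KD (median 0.42), and with the covariate 13 of 15 (median 0.53). With ERCC counts 7 of 15 were above 0 in Klf5 KD against control, where the median of all genes was 0.66 and 2 of the 15 lay above it. The median member of the cluster shared 61.2% of its 50-base stretches with another gene.

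A second chromosome 17 cluster, from Zfp871 to Zfp955b (chr17:32765496-33307241), was the largest with all members on 1 side. Its summed CPM was 54.1 and 67.6 in control, 50.5, 73.7 and 99.0 in Nr5a2 KD, 38.4, 53.3 and 39.4 in Klf5 KD, and 60.3, 77.7, 94.7 and 96.5 in dKD. Every Klf5 KD library lay below every dKD library. All 6 tested members were above 0 in dKD against Klf5 KD, with a median of 0.90, and Zfp952, Zfp763 and Zfp871 were called, the last of which is named because only 3 were. In Nr5a2 KD against control 5 of 6 were above 0, with a median of 0.48, and Zfp955a was below, but 4 of 6 were above without the libraries of low mitochondrial share (median 0.080) and 3 of 6 with the covariate. Without the libraries of low mitochondrial share 5 of 6 stayed above 0 in dKD against Klf5 KD, with a median of 0.63, and none of the 3 called members kept its call. With the covariate all 6 were above 0.

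The chromosome 2 cluster from Zfp831 to Zfp931 (chr2:174643534-178078476) was the highest relative to control but rested on few reads. Its summed CPM was 7.92 and 11.1 in control, 24.0, 29.5 and 27.5 in Nr5a2 KD, 12.2, 12.0 and 19.9 in Klf5 KD, and 12.7, 17.2, 40.6 and 57.0 in dKD. All 3 knockdown groups lay above control, and dKD replicates 3 and 4, of low mitochondrial share, lay far above dKD replicates 1 and 2. Only 4 of its 11 members were tested, Zfp970, Zfp971, Zfp972 and Zfp931, and none was called in Nr5a2 KD against control, where their values lay between 1.25 and 2.32. Zfp972 passed in 7 of 15 alternatives and Zfp970 in 2 of 16. Without the libraries of low mitochondrial share Zfp972 was at 2.59 (edgeR adjusted p = 0.0316). Zfp972 and Zfp931 reached the count filter in no control library and passed it through Nr5a2 KD, so the filter favoured values above 0 for both, whereas Zfp970 and Zfp971 reached it in both controls. In dKD against Klf5 KD 1 of the 3 tested without the libraries of low mitochondrial share was above 0. Of 20 other tested genes within the same span, 17 were above 0 in Nr5a2 KD against control and 5 were called higher. Of all tested genes 52.6% were above 0 and 3.45% called higher. Whether these 20 genes reached the count filter in control was not checked.

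The cluster that holds Zfp758 was divided. Its 13 tested members ran from -3.39 for Zfp758 to 1.81 for Zfp994 in Nr5a2 KD against control, with 5 above 0 and 4 above the median of all genes (6 with ERCC counts). Its summed CPM was 543 and 587 in control, 342, 360 and 550 in Nr5a2 KD, 312, 376 and 431 in Klf5 KD, and 511, 466, 526 and 498 in dKD. All libraries of Klf5 KD and dKD lay below both controls, and so did 2 of the 3 of Nr5a2 KD. Of this sum Zfp820 averaged 315 CPM in control and 227 in Klf5 KD. In Klf5 KD against control 10 of its 11 tested members were below 0, with a median of -0.62, and with ERCC counts 6 of 11 were below 0 and 10 below the median of all genes. Without the libraries of low mitochondrial share 9 of 11 were below 0 (median -0.44), with the mitochondrial covariate 6 of 11 (median -0.51), and without Klf5 KD replicate 3 all 11 were, with a median of -1.11. Of the other clusters, those from Zfp787 to Zfp772 on chromosome 7 and from Zfp709 to Zfp961 on chromosome 8 had all 3 tested members below 0 in Nr5a2 KD against control, none of them called.

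**Figure D4:**
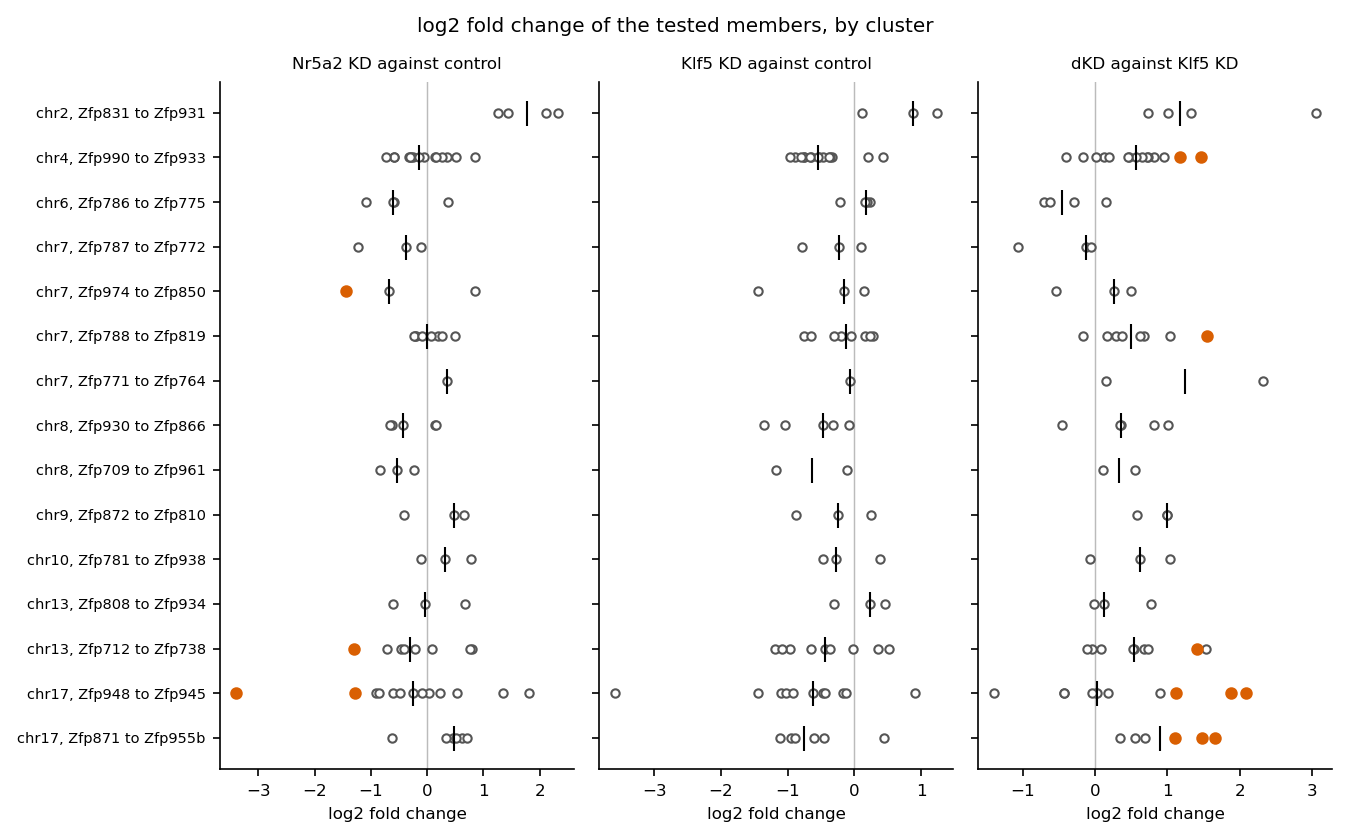
log2 fold change (x axes) of each tested member, by cluster (y axis), in Nr5a2 KD against control, Klf5 KD against control and dKD against Klf5 KD. Filled points passed the test, open points did not, and the vertical mark is the cluster's median. Most clusters spread over both sides of 0, and the second chromosome 17 cluster lies wholly above 0 in dKD against Klf5 KD.

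**Figure D5:**
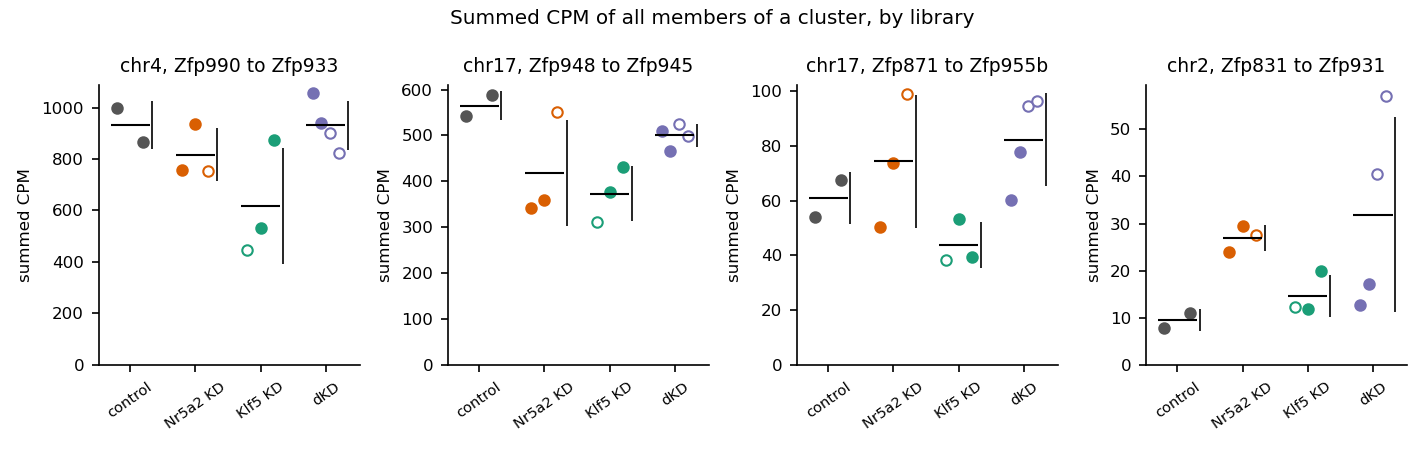
Summed CPM of all members (y axes) of 4 clusters in each library, by group (x axis). Points are libraries, horizontal bars group means, vertical bars ± 1 SD, and open points the 4 libraries of low mitochondrial share. The chromosome 4 sums of 2 Klf5 KD libraries, 446 and 530, lie below those of all other libraries, and the chromosome 2 sums of dKD replicates 3 and 4 lie above all others.

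Some members with a known role or a high level did not pass. Zfp706, a small zinc finger protein that is linked to the self-renewal of embryonic stem cells, was the highest member. It had 3054 and 3524 CPM in control, 2150.2, 1996 and 1998 in Nr5a2 KD, 3317, 3301 and 3357 in Klf5 KD, and 1734, 2137, 2705 and 2497 in dKD. The libraries with Nr5a2 siRNA lay below all others, and the change in Nr5a2 KD against control was -0.66 ± 0.21 (edgeR adjusted p = 0.0692). Per kilobase of exon it stood at 660 CPM in control, followed by Zfp936 at 179, Zfp932 at 134, Zfp960 at 103 and Zfp820 at 84.8. Zfp809, which silences murine leukaemia virus-like elements through TRIM28, was at 0.65 ± 0.28 in Nr5a2 KD and 0.85 ± 0.36 in dKD against control, and neither passed (edgeR adjusted p = 0.173 and 0.172). Zfp961 and Zfp830 were at -0.53 ± 0.31 and 0.24 ± 0.35 in Nr5a2 KD against control, and neither passed. Zfp703, Zfp711, Zfp750, Zfp768 and Zfp827 stayed at or below 1.47 CPM in every library.

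The corepressor machinery on which KRAB proteins act was measured beside them. Of a list of 22 genes for TRIM28, SETDB1 and their partners, 21 were found and none was called in the 3 knockdowns against control. Of all genes 7.86% were called in Nr5a2 KD, 7.24% in dKD and 0.0% in Klf5 KD. Cbx3, Cbx5 and Smarcad1 averaged 57.3, 85.5 and 302 CPM in control and 32.3, 48.8 and 186 in Nr5a2 KD. Their Nr5a2 KD libraries lay below both controls, but none passed (edgeR adjusted p = 0.0532, 0.0502 and 0.0791). The median of the list in Nr5a2 KD against control was -0.15. Trim28 averaged 88.1 CPM in control, 127 in Nr5a2 KD, 113 in Klf5 KD and 127 in dKD, and Setdb1 averaged 30.6, 23.9, 26.6 and 24.5 CPM. In dKD against Klf5 KD Suv39h2, an H3K9 methyltransferase, was higher (1.15 ± 0.34, edgeR adjusted p = 0.0407) and Cbx1, an HP1 protein, lower (-1.05 ± 0.26, edgeR adjusted p = 0.0171). The summed CPM of 8 genes of the 8-cell stage, Nr5a2 and Klf5 among them, reached from 4457 to 5126 across the controls and from 5041 to 5686 across Klf5 KD, but from 2110.3 to 3064 across Nr5a2 KD and from 1861 to 2891 across dKD. Most of this sum was Dppa5a, which averaged 3819 CPM in control and 2164 in Nr5a2 KD. Of the 8 genes Nr5a2, Klf5 and Tead4 were called lower in Nr5a2 KD against control, where 4.42% of all genes were lower. Tfap2c, at 62.0 CPM in control and 30.6 in Nr5a2 KD, changed by -0.99 ± 0.24 (edgeR adjusted p = 0.0246), just under 2-fold. Dppa5a passed the adjusted p too (-0.80, edgeR adjusted p = 0.0484), also under 2-fold. Sall4 averaged 93.5 and 83.7 CPM in control and Nr5a2 KD, Cdh1 35.8 and 32.4, and Pou5f1 11.9 and 9.05. The summed CPM of 6 markers of 2-cell embryos lay between 13.5 and 17.7 across the controls, 15.1 and 26.7 across Nr5a2 KD, 15.1 and 19.0 across Klf5 KD, and 15.8 and 35.2 across dKD. Of these Gm5662 was called higher in Nr5a2 KD against control (1.54 ± 0.39, edgeR adjusted p = 0.0315). Zfp352, at 0.570 CPM in control and 3.98 in dKD, was called higher in dKD against control (2.81 ± 0.60, edgeR adjusted p = 0.0156). Tdpoz4 averaged 7.73 CPM in control, 5.14 in Nr5a2 KD and 4.89 in dKD, and Zscan4d 1.92, 0.687 and 1.20, so both averaged lower. Zscan4c averaged 0.428, 0.458 and 1.12 CPM and Usp17la 0.0669, 0.504 and 0.838. None of these was called in either comparison. The summed CPM of 6 oocyte transcripts lay between 104 and 105 across the controls, 81.2 and 92.9 across Nr5a2 KD, 65.6 and 85.2 across Klf5 KD, and 50.1 and 116 across dKD, where it reached both below and above the controls. Of these Nlrp5 was called lower in dKD against control (-1.17 ± 0.29, edgeR adjusted p = 0.0324). The part of these stage-linked transcripts in the members' values was not tested.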

How the data were processed

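RNA-seq libraries of 10 pooled 8-cell embryos were analysed in 4 groups (2 control, 3 Nr5a2 KD, 3 Klf5 KD, 4 dKD). The authors trimmed reads with Trim Galore 0.6.2, aligned them with STAR and counted exons with featureCounts 2.0.1 without strand on GRCm38, discarding multimapping reads and splitting reads over overlapping genes, so the deposited values are estimated counts that need not be whole. The study's methods name a Novaseq and the labels a Novaseq or an AVITI instrument, without saying which library was run on which. The filter applied to the alignments and the STAR version are not given in the sources used here. There are no molecular identifiers. The counts were rounded and tested with edgeR 4.0.16 (quasi-likelihood test, TMM, minimum count 10, minimum total 15, R 4.3.3), each comparison on its own groups and the interaction on all 12 libraries, with Benjamini-Hochberg adjustment over all tested genes. SE is the log2 fold change over the square root of F. CPM are counts scaled by TMM library sizes. The test was checked on simulated data. Depth was 6676683 to 12560926 counts per library, which leaves the 34 members with a mean count under 10 imprecise.

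Members and lists were chosen with earlier results of these data known. The rule for named members took, per comparison, up to 12 called members by size of change (or the 3 smallest p-values), the 5 highest per kilobase, the lowest and highest of each cluster in Nr5a2 KD against control, and members with a known role. Promoter windows were aligned with Biopython 1.88, and sequences are RefSeq's on GRCm38.p6. Alternatives were DESeq2 1.42.0, other scalings and filters, all libraries in 1 fit, a replicate block, a mitochondrial covariate, other cluster gaps (0.5 and 2 Mb), and leaving out each library. Deviations of same-numbered Nr5a2 KD and dKD libraries from their group means correlated at 0.13, 0.22 and 0.25, so these numbers were taken to pair them, although Nr5a2 KD replicate 3 also correlated with dKD replicate 4 (0.26), and these and dKD replicate 3 are all of low mitochondrial share. The block gave 0 calls among members there too. The labels of the other group pairs share only a number.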

Additional observations from a re-analysis of the deposited data

Results flagged for a closer look

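Of 58 named members checked for a library far from the others of the dKD group, 1 stood out. Zfp819 had 4.81 CPM in dKD replicate 2 and 1.01, 1.30 and 1.41 CPM in the other dKD libraries. In control it had 3.63 and 0.803 CPM. Chance alone marks about 1 in 20 groups of this size, and the cause was not tested.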

How the results depend on the processing

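Of 38 called values of named members, 10 kept their call under every alternative run and none changed sign. These were Zfp758 in Nr5a2 KD against control and in Klf5 KD against Nr5a2 KD, Zfp791, Zfp947 and Zfp995 in dKD against Klf5 KD and in Klf5 KD against Nr5a2 KD, Zfp980 in dKD against Klf5 KD and Zfp948 in Klf5 KD against Nr5a2 KD. At this depth the 34 members with a mean count under 10 are imprecise, but well-counted members such as Zfp932 lost calls too. The alternative without the libraries of low mitochondrial share was chosen after seeing the data. The cause of each change below was not tested, except that fewer members enter the counts of members with whole counts.

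The 7 members called in Nr5a2 KD against control became 11 with DESeq2's test, 15 at an unadjusted p under 0.05 with the 2-fold minimum kept (as in each such count here) and 2 among members with whole counts, and 1 to 9 when a library was left out (2 and 1 without control replicates 1 and 2, and 4 without Nr5a2 KD replicate 1). Over all genes the calls were 6.11% without Nr5a2 KD replicate 1. With the mitochondrial covariate 5 members were called, of which 3 were lower and 2 higher, where 2.81% of all genes were lower and 2.13% higher. The 5 in dKD against control became 12 with DESeq2's test, 11 with total counts, 28 with ERCC counts, 13 with no filter, 2 with the mitochondrial covariate, 2 without the libraries of low mitochondrial share, 18 at an unadjusted p and 3 among members with whole counts. They were 11 without dKD replicate 1, and 2 without dKD replicate 3 or 4. Over all genes the calls were 9.64, 5.56 and 5.04% without dKD replicates 1, 3 and 4. Leaving out either control left 1 library in that group, so no count is given for it here. The 0 in Klf5 KD against control became 2 with no filter and 7 at an unadjusted p with the 2-fold minimum, all lower, and stayed 0 to 0 when a library was left out. The 15 in dKD against Klf5 KD became 7 without the libraries of low mitochondrial share, 23 at an unadjusted p and 4 among members with whole counts. They ranged from 8 to 17 when a library was left out (8 without Klf5 KD replicate 1 or 2 or dKD replicate 3). Over all genes the calls ranged from 6.69 to 10.9% (7.45, 6.69 and 8.82% without those 3 libraries in turn). The 11 in Klf5 KD against Nr5a2 KD became 6 with ERCC counts, 7 without the libraries of low mitochondrial share, 19 at an unadjusted p and 3 among members with whole counts. They ranged from 7 to 9 when a library was left out (7 without Nr5a2 KD replicate 2 or Klf5 KD replicate 2). Over all genes the calls ranged from 7.02 to 10.9% (7.36 and 7.02% without those libraries in turn). The 0 in dKD against Nr5a2 KD became 2 at an unadjusted p with the 2-fold minimum, and the 0 of the interaction became 2 with no filter. Both stayed 0 to 0 when a library was left out. Calls over all genes moved too. In Nr5a2 KD against control they went from 7.86% to 9.24% with DESeq2's test and 15.2% at an unadjusted p. In dKD against control they went from 7.24% to 9.85%, 7.78%, 22.0% and 5.75% with DESeq2's test, total counts, ERCC counts and no filter, to 5.78% with the covariate and to 15.5% at an unadjusted p. They were 5.50% there, 5.95% in dKD against Klf5 KD and 9.17% in Klf5 KD against Nr5a2 KD without the libraries of low mitochondrial share. In Klf5 KD against control they were 0.262% lower and 0.171% higher with no filter, and 3.00% lower and 2.00% higher at an unadjusted p. At an unadjusted p they were 16.6% in dKD against Klf5 KD, 17.7% in Klf5 KD against Nr5a2 KD and 1.70% in dKD against Nr5a2 KD. With ERCC counts and the adjusted p they were 5.72% in Klf5 KD against Nr5a2 KD.

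The replicate number as a block gave 8 called members in Nr5a2 KD against control and 5 in dKD against control. It gave 9 in Klf5 KD against Nr5a2 KD. Of all genes 6.56, 7.56 and 10.5% were called in these 3 comparisons. In Klf5 KD against control 7 were called, all lower, where 1.14% of all genes were lower and 0.833% higher. In dKD against Klf5 KD 4 were called, all higher, against 1.89% of all genes higher and 2.23% lower. There were 0 in dKD against Nr5a2 KD and in the interaction. Same-numbered libraries of these groups, dKD and Nr5a2 KD apart, did not deviate together (correlations from -0.20 to 0.06), so the block there rests on a number alone.

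Clusters with all tested members on 1 side numbered 8 with ERCC counts in Nr5a2 KD against control (2 to 3 when a library was left out), 10 with ERCC counts in dKD against control (3 to 5), 4 with ERCC counts in Klf5 KD against control (1 to 3) and 7 with total counts in dKD against Klf5 KD (3 to 7). These scalings shift all genes, and counted against the median of all genes the numbers were 3, 3, 2 and 4.

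The members whose sign turned had not passed the test, all in Nr5a2 KD against control. With ERCC counts the log2 fold change was 0.69 for Zfp781, 0.24 for Zfp808, 0.27 for Zfp955a, 0.054 for Zfp984, 0.65 for Zfp715, 0.71 for Zfp954, 0.0056 for Zfp868, 0.50 for Zfp709 and 0.22 for Zfp872. With total counts it was 0.0064 for Zfp781 and 0.0028 for Zfp954. With the mitochondrial covariate it was -0.071 for Zfp938, -0.89 for Zfp975, 0.10 for Zfp709 and 0.13 for Zfp872. Zfp975 was at -0.32 with the block and at -0.31 without the libraries of low mitochondrial share, of which Nr5a2 KD replicate 3 is the 1 in this comparison. When a library was left out, Zfp781 ranged from -0.26 to 0.065, Zfp715 from -0.57 to 0.15, Zfp975 from -0.31 to 0.87, Zfp954 from -0.36 to 0.17, Zfp963 from -0.39 to 1.02, Zfp882 from -1.66 to 1.11, Zfp709 from -0.81 to 0.73 and Zfp872 from -0.95 to 0.42.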
